A study of Rattus norvegicus with 18 samples.

Results

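The genes described here are 9 rat genes of the ATF4 branch of the integrated stress response: Atf4, Atf3, Atf5, Ddit3, Trib3, Asns, Psat1, Mthfd2 and Sesn2. They were found on the array by gene symbol, taking every probe set that the platform annotation assigns to that symbol alone. This gave 12 probe sets, 3 of them for Trib3 and 2 for Sesn2. Where a gene had several, the brightest on average over the 18 arrays stands for it. The 9 genes were among 14217 genes named on the array, and all 9 were among the 9015 genes bright enough to test (log2 level of 4 or more on at least 3 arrays).

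The cells were NRK-52E, 1 established epithelial line from rat kidney that the labels describe as proximal tubular, from the Osborne-Mendel strain. Confluent cultures were treated for 6, 24 or 72 h with 1.65 µM aristolochic acid (AA), dissolved in DMSO to a final 0.1%, or with 0.1% DMSO as control. The 6 groups, AA and DMSO at each time, held 3 arrays each, 18 in all, and every group carried the solvent. AA is a plant nitrophenanthrene whose metabolites form DNA adducts. Replicates are named as biological in the labels, without a plate, passage or day, so the p-values below speak for the spread of these 18 samples.

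In the integrated stress response, kinases that sense unfolded proteins, missing amino acids, missing heme or double-stranded RNA phosphorylate the initiation factor eIF2. Bulk translation then falls while the Atf4 message is translated more, because short upstream reading frames hold its coding frame back in unstressed cells. ATF4 protein pairs with C/EBP family proteins and activates genes for amino acid supply, redox balance and, on long stress, cell death. An array measures messenger RNA and shows neither eIF2 phosphorylation nor ATF4 protein. Atf3 and Sesn2 are also known targets of p53, the factor that DNA damage activates.

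At 72 h, 8 of the 9 genes were higher in AA than in DMSO and 0 were lower (limma, adjusted p under 0.05), beside 27.4% of all tested genes that were higher and 19.8% that were lower. The exception was Psat1. The rises ran from log2 0.67 for Atf4 to log2 5.27 for Atf3, with a median of 1.14 over the 9 genes against 0.05 over all tested genes. For all 9 genes, Psat1 included, the AA and DMSO arrays of 72 h did not overlap, as was true of 59.6% of tested genes. At the unadjusted p under 0.05 the count of lower genes was 1.

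At 24 h, 0 of the 9 genes were higher and 0 were lower by the same limma fit, where 1.81% of tested genes were higher and 0.277% lower. The unadjusted p was under 0.05 for 2 genes, both higher in AA. At 6 h, 1 of the 9 was higher (Psat1) and 0 were lower, beside 12.1% and 12.4% of tested genes. At the unadjusted p under 0.05 the counts at 6 h were also 1 higher and 0 lower. The median over the 9 genes was log2 0.03 at 6 h and 0.08 at 24 h, against 0.01 and -0.01 over all tested genes.

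**Figure D1:**
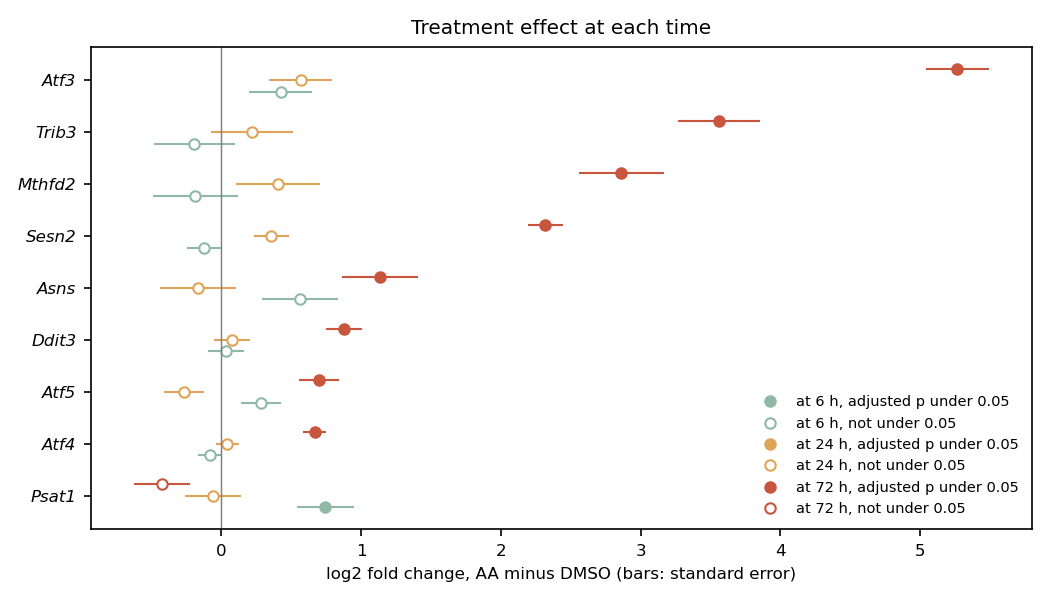
Difference between AA and DMSO (horizontal axis, log2 fold change with its standard error) for each gene at 6, 24 and 72 h, with 3 arrays per group; filled points have an adjusted p under 0.05. The filled points are 8 of the 9 genes at 72 h, from 0.67 to 5.27, and Psat1 at 6 h, at 0.75.

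Values are log2 expression levels, which compare 1 probe set between arrays and not one gene with another. They have a floor near log2 2 that the background correction gives to weak signals, so a fold against a group mean below 4 depends on that correction. Array medians lay between log2 4.03 and 4.20, and the replicate SD of a tested gene had a median of 0.11. On the third AA array of 6 h, 2.85% of tested genes lay over 0.5 from their group mean, the highest share, against 0.30% to 1.91% on the other arrays. Asns, Psat1 and Atf5 were among the genes high on that array.

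Beside the 72 h differences, the 3' minus 5' difference of the beta-actin control, which rises as RNA is degraded or labelled over a shorter length, was log2 1.85 to 2.16 in AA and 1.29 to 1.45 in DMSO. The Gapdh control gave -0.12 to -0.04 in AA and -0.28 to -0.13 in DMSO. The hexokinase control overlapped, at 1.10 to 1.67 in AA and 0.92 to 1.29 in DMSO. The part of RNA quality in the 72 h results was not tested.

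Atf4 encodes the transcription factor at the centre of the response. Its 3 DMSO arrays of 72 h, in order of replicate number, read log2 11.92, 11.87 and 11.78, and its 3 AA arrays read 12.40, 12.67 and 12.51. The lowest AA array thus lay above the highest DMSO array, and all 3 lay above each of the other 15 arrays. The difference was log2 0.67 ± 0.08 (SE, n = 3 and 3; adjusted p = 1.82e-06), a rise of 1.59-fold. The AA and DMSO arrays overlapped at 6 h (AA 12.04 to 12.20, DMSO 12.18 to 12.30) and at 24 h (AA 11.74 to 11.88, DMSO 11.61 to 11.93). The differences there were -0.08 ± 0.08 (SE, adjusted p = 0.490) and 0.05 ± 0.08 (SE, adjusted p = 0.907).

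Atf3 encodes a stress-induced factor of the same family that acts mostly as a repressor. It had the largest rise of the 9 genes. The 72 h DMSO arrays read log2 3.56, 2.98 and 3.06, and the AA arrays 8.23, 8.39 and 8.77. The DMSO arrays were the lowest of the 18 and the AA arrays the highest. The difference was log2 5.27 ± 0.23 (SE, n = 3 and 3; adjusted p = 7.18e-13), 38.5-fold, and since the DMSO mean of 3.20 is close to the floor its size depends on the background correction. At 6 h the DMSO arrays read 5.39, 5.75 and 5.40 and the AA arrays 5.80, 6.25 and 5.76. Those groups lay just apart, and Atf3 and Psat1 were the 2 of the 9 genes of which this was true at 6 h, beside 36.4% of tested genes. The difference of 0.43 ± 0.23 (SE) did not pass the test (adjusted p = 0.176). At 24 h the AA arrays read 5.16, 5.09 and 5.50 and the DMSO arrays 4.26, 4.62 and 5.17, with a difference of 0.57 ± 0.23 (SE, adjusted p = 0.307).

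Atf5 encodes a related factor that is also under translational control. Its 72 h DMSO arrays read log2 9.82, 9.93 and 9.94 and its AA arrays 10.39, 10.81 and 10.59. Again the 3 AA arrays lay above all 15 others. The difference was log2 0.70 ± 0.14 (SE, n = 3 and 3; adjusted p = 0.000494). At 6 h AA read 9.49, 9.52 and 10.16 and DMSO 9.53, 9.23 and 9.54. Those groups overlapped, and the difference of 0.29 ± 0.14 (SE) did not pass the test (adjusted p = 0.146) and was 0.07 (adjusted p = 0.744) without the third AA array. At 24 h Atf5 pointed the other way: AA read 9.20, 9.20 and 9.21 and DMSO 9.60, 9.43 and 9.37. It was the 1 gene of the 9 whose 24 h groups did not overlap, beside 19.5% of tested genes, and the difference of -0.26 ± 0.14 (SE) did not pass the test (adjusted p = 0.526).

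Ddit3 encodes CHOP, the ATF4-induced factor linked to cell death in prolonged stress. The 72 h DMSO arrays read log2 9.70, 9.56 and 9.69 and the AA arrays 10.25, 10.67 and 10.65. All 3 AA arrays lay above the other 15. The rise was log2 0.88 ± 0.13 (SE, n = 3 and 3; adjusted p = 1.40e-05). The groups overlapped at 6 h (AA 9.75 to 10.04, DMSO 9.68 to 10.19) and at 24 h (AA 9.32 to 9.60, DMSO 9.35 to 9.43), with differences of 0.03 ± 0.13 and 0.08 ± 0.13 (SE, adjusted p = 0.870 and 0.896).

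**Figure D2:**
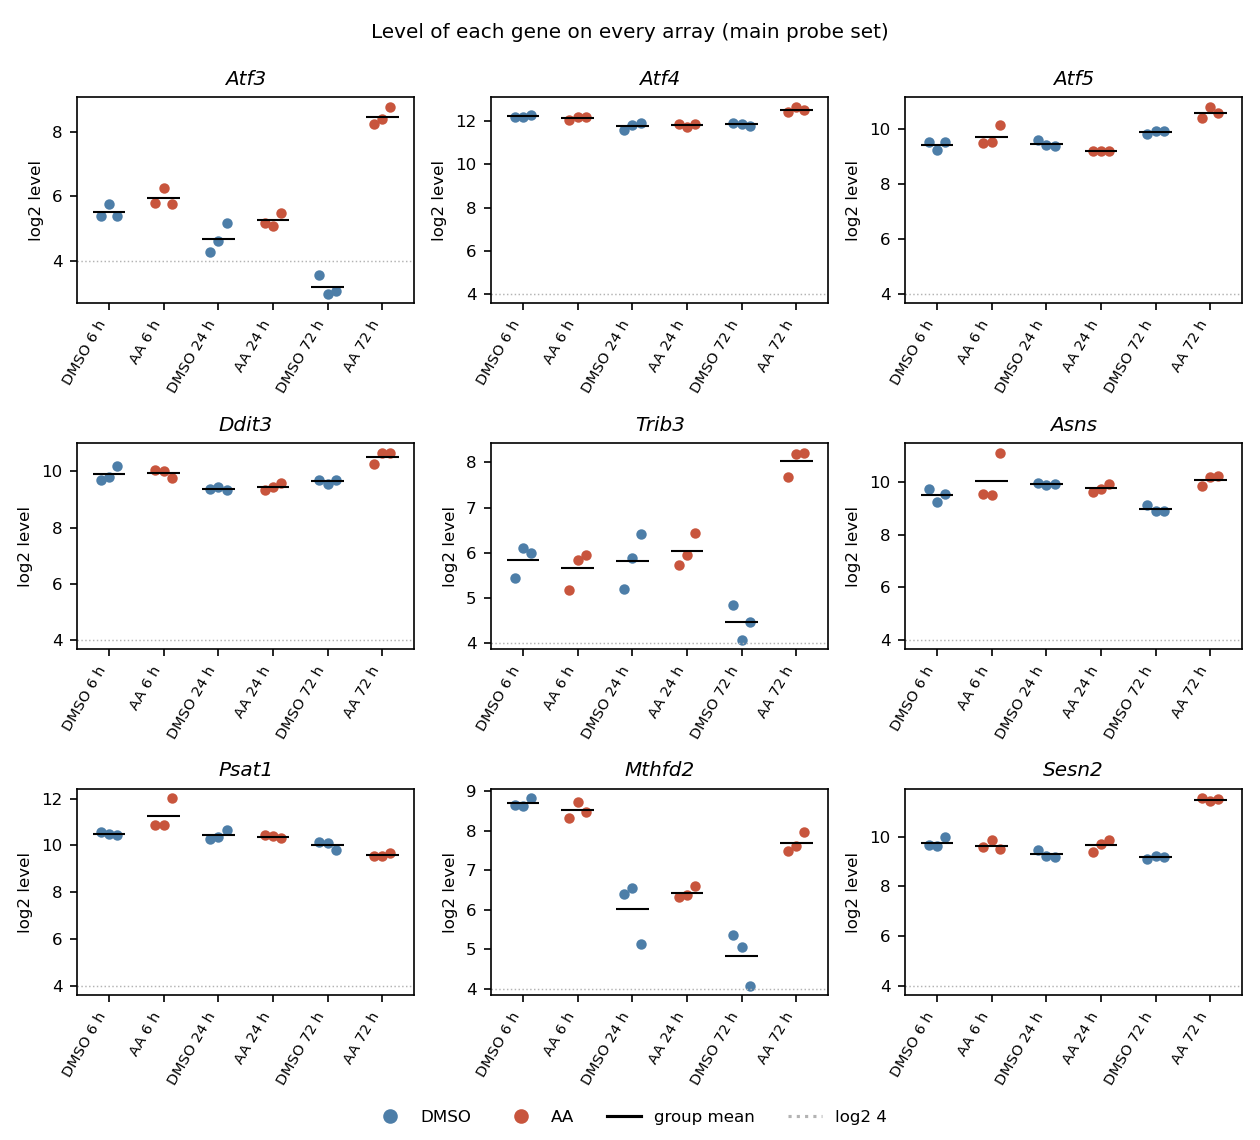
Log2 level (vertical axis, a separate scale in each panel) of the main probe set of each gene on all 18 arrays, in the 6 groups; points are arrays, bars group means and the dotted line log2 4. The AA arrays of 72 h lie above the other 15 in Atf3, Atf4, Atf5, Ddit3, Trib3 and Sesn2, and below the other 15 in Psat1.

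Trib3 encodes a pseudokinase that ATF4 and CHOP induce and that restrains ATF4 and AKT in return. On its main probe set (1370694_at) the 72 h DMSO arrays read log2 4.84, 4.08 and 4.48 and the AA arrays 7.67, 8.19 and 8.22. The AA arrays lay above the other 15 and the DMSO arrays below the other 15. The rise was log2 3.56 ± 0.29 (SE, n = 3 and 3; adjusted p = 6.35e-09), 11.8-fold. At 6 h and 24 h the arrays of Trib3 ranged widely within groups, from 5.19 to 6.41 in DMSO at 24 h, and the differences were -0.19 ± 0.29 and 0.22 ± 0.29 (SE, adjusted p = 0.664 and 0.861).

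The other Trib3 probe sets moved the same way at 72 h. Probe set 1370695_s_at read 3.14, 4.32 and 4.21 in DMSO and 6.37 to 7.07 in AA, a rise of log2 2.92 ± 0.27 (SE, adjusted p = 8.87e-08). Since its DMSO mean was 3.89, the size of that rise depends on the background correction. Probe set 1386321_s_at read 4.71, 4.63 and 4.42 in DMSO and 6.60, 6.64 and 7.09 in AA, a rise of log2 2.19 ± 0.27 (SE, adjusted p = 3.11e-06). All 3 Trib3 probe sets and the main Sesn2 probe set were thus higher at 72 h in the fit of 16253 probe sets, of which 23.5% were higher. The dimmer Sesn2 probe set was also called, but it reached log2 4 only on the AA arrays of 72 h. It was tested only because it was high there, so its call adds no support. The 3 Trib3 probe sets differed in the size of the rise, from 2.19 to 3.56, and all read the same RNA samples.

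Sesn2 encodes sestrin 2, a stress-induced protein that lowers mTORC1 signalling when leucine is scarce. On the main probe set (1391607_at) the 72 h DMSO arrays read log2 9.11, 9.25 and 9.20 and the AA arrays 11.56, 11.44 and 11.52. These AA arrays lay close together and above all 15 others. The rise was log2 2.32 ± 0.13 (SE, n = 3 and 3; adjusted p = 1.88e-11), 4.99-fold. At 24 h AA read 9.39, 9.70 and 9.88 and DMSO 9.48, 9.25 and 9.17. Those groups overlapped through a single AA array, and the difference of 0.36 ± 0.13 (SE) did not pass the test (adjusted p = 0.212), nor did that of -0.12 ± 0.13 (SE) at 6 h (adjusted p = 0.510). The dimmer Sesn2 probe set (1396901_at) stayed below log2 4 on all 15 other arrays and read 6.10, 5.67 and 5.17 in AA at 72 h, a rise of log2 1.87 ± 0.21 (SE, adjusted p = 1.46e-06). It passed the filter on low levels only through those AA arrays. Since its DMSO mean was 3.78, the size of the rise depends on the background correction.

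Asns encodes asparagine synthetase, a classic target of amino acid starvation. The 72 h DMSO arrays read log2 9.13, 8.89 and 8.90 and the AA arrays 9.87, 10.19 and 10.26. The groups were apart, but the AA arrays did not leave the range of the earlier groups: 10 of the other 15 arrays lay below all of them, and 1 lay above. The rise was log2 1.14 ± 0.27 (SE, n = 3 and 3; adjusted p = 0.00194). The array above was the third AA array of 6 h. Asns read 9.56, 9.52 and 11.14 in AA at 6 h and 9.75, 9.24 and 9.54 in DMSO. The difference of 0.56 ± 0.27 (SE) did not pass the test (adjusted p = 0.135), and it was 0.03 without that array, 0.82 and called (adjusted p = 0.0372) without the first, and 0.84 and called (adjusted p = 0.0357) without the second. At 24 h the difference was -0.17 ± 0.27 (SE, adjusted p = 0.893).

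Mthfd2 encodes a mitochondrial folate enzyme that feeds one-carbon units to purine synthesis. The 72 h DMSO arrays read log2 5.37, 5.05 and 4.08 and the AA arrays 7.49, 7.62 and 7.97. The rise was log2 2.86 ± 0.30 (SE, n = 3 and 3; adjusted p = 2.43e-07), 7.28-fold. Unlike Atf3, Trib3 and Sesn2, the AA arrays of 72 h were not the highest of the series: they lay above the 9 arrays of the 24 h groups and of DMSO at 72 h, and below the 6 arrays of 6 h. At 6 h Mthfd2 read 8.64, 8.62 and 8.82 in DMSO and 8.33, 8.74 and 8.46 in AA. At 24 h it read 6.39, 6.54 and 5.12 in DMSO and 6.31, 6.36 and 6.60 in AA. The groups overlapped at both times, with differences of -0.18 ± 0.30 and 0.41 ± 0.30 (SE, adjusted p = 0.689 and 0.702).

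Psat1 encodes the transaminase of the serine synthesis pathway. It was the gene of the 9 that did not rise at 72 h. The DMSO arrays of 72 h read log2 10.16, 10.08 and 9.81 and the AA arrays 9.55, 9.54 and 9.69. These AA arrays lay below all 15 others. The difference of -0.42 ± 0.20 (SE, n = 3 and 3) did not pass the test with all arrays in the fit (adjusted p = 0.0931). It passed when the fit held only the 72 h arrays (adjusted p = 0.00872) or left out the third AA array of 6 h (adjusted p = 0.00185), which widens the shared estimate of the spread of this gene.

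At 6 h Psat1 was higher in AA, at 10.85, 10.85 and 12.01, than in DMSO, at 10.57, 10.47 and 10.43. The groups were apart, and the third AA array lay over 1 log2 unit above the other AA arrays. The difference was log2 0.75 ± 0.20 (SE, n = 3 and 3; adjusted p = 0.0128). Without that array it was 0.36 and still called (adjusted p = 0.0486), and with only the 6 h arrays in the fit it was 0.75 and not called (adjusted p = 0.101). At 24 h the Psat1 groups overlapped (AA 10.30 to 10.42, DMSO 10.27 to 10.67), with a difference of -0.06 ± 0.20 (SE, adjusted p = 0.963).

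The treatment effect was then compared between times by a test of the difference itself. From 24 h to 72 h it rose for 8 of the 9 genes and fell for 0, beside 18.7% and 13.7% of tested genes. The gain ran from log2 0.62 ± 0.12 (SE, adjusted p = 0.000426) for Atf4 to 4.70 ± 0.32 (SE, adjusted p = 3.44e-09) for Atf3. The unadjusted p was under 0.05 for 0 genes in the lower direction. Psat1 gave -0.36 ± 0.29 (SE, adjusted p = 0.351).

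From 6 h to 72 h the effect changed for 7 of the 9 genes, beside 41.2% of tested genes. It rose for 6 (Atf3, Atf4, Ddit3, Trib3, Mthfd2 and Sesn2), beside 23.1% of tested genes. The other was Psat1, at -1.17 ± 0.29 (SE, adjusted p = 0.00313). Atf5 (0.41 ± 0.20, adjusted p = 0.110) and Asns (0.57 ± 0.38, adjusted p = 0.243) did not pass, but both did without the third AA array of 6 h, at 0.63 (adjusted p = 0.00387) and 1.10 (adjusted p = 0.000134). From 6 h to 24 h the effect rose for 0 of the 9 and fell for 0 (limma), beside 1.45% and 0.976% of tested genes. At the unadjusted p under 0.05, 1 was higher and 2 were lower. The contrasts between times share arrays with the comparisons above.

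The DMSO cells changed with time in culture. From 6 h to 24 h, 5 of the 9 genes were lower and 0 were higher (limma), beside 30.5% and 28.3% of tested genes. No gene was higher at the unadjusted p under 0.05 (0 of 9). Mthfd2 fell by 2.67 on the log2 scale (SE 0.30, adjusted p = 4.11e-07), and the other 4 were Atf3 (-0.83), Ddit3 (-0.51), Sesn2 (-0.47) and Atf4 (-0.44). For Sesn2 the dimmer probe set gave 0.26 ± 0.21 (SE, adjusted p = 0.315), the opposite sign, close to the floor.

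From 24 h to 72 h in DMSO, 4 of the 9 genes were lower and 1 was higher, beside 17.1% and 17.2% of tested genes. The lower genes were Atf3 (-1.48 ± 0.23, adjusted p = 5.30e-05), Trib3 (-1.36 ± 0.29, adjusted p = 0.00122), Mthfd2 (-1.19 ± 0.30, adjusted p = 0.00500) and Asns (-0.96 ± 0.27, adjusted p = 0.00963). Of the 3 Trib3 probe sets, 2 were lower in the fit of probe sets, beside 17.8% of all probe sets, and 1386321_s_at gave -0.69 ± 0.27 (SE, adjusted p = 0.0531). Atf5 was higher by 0.43 ± 0.14 (SE, adjusted p = 0.0247), a call lost without replicate 2 or 3 of either group or without the filter on low levels. For Mthfd2 the DMSO arrays overlapped, at 5.12 to 6.54 at 24 h and 4.08 to 5.37 at 72 h. Psat1 gave -0.42 ± 0.20 (SE, adjusted p = 0.117), called lower without the third AA array of 6 h (adjusted p = 0.00294). Atf3, Trib3, Mthfd2 and Asns were thus lower on average in DMSO at 72 h than at 24 h. Their 72 h treatment differences were read against those DMSO cells.

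For Mthfd2 and Asns the AA means of 72 h, 7.69 and 10.11, stood beside AA means of 6.42 and 9.77 at 24 h. For Atf3 and Trib3 they were 8.46 and 8.03 beside 5.25 and 6.05. In each of these 4 genes the AA mean was higher and the DMSO mean lower at 72 h than at 24 h. The AA groups were not tested against each other. For Asns their arrays overlapped, at 9.62 to 9.92 at 24 h and 9.87 to 10.26 at 72 h. Those of Atf3, Trib3 and Mthfd2 did not overlap.

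Within groups the genes did not all vary together. Over the 18 deviations from group means, Pearson's r was 0.87 for Asns with Psat1 and 0.86 for Asns with Atf5. It was 0.79 for Atf3 with Trib3 and 0.72 for Atf4 with Trib3, whereas Asns with Atf3 gave -0.12. Over the 17 arrays left without the third AA array of 6 h, r fell to 0.20 for Asns with Psat1 and to 0.59 for Asns with Atf5, so the first rests on that array. Without it, Atf3 with Trib3 gave 0.89, Atf4 with Trib3 0.71 and Asns with Atf3 0.17. These are descriptions over arrays that share cells and processing. The third AA array of 6 h lay above its group mean by 1.07 for Asns, 0.77 for Psat1 and 0.43 for Atf5. On the same array Atf3 deviated by -0.17, Ddit3 by -0.18, Atf4 by 0.04, Mthfd2 by -0.04 and Trib3 by 0.30.

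**Figure D3:**
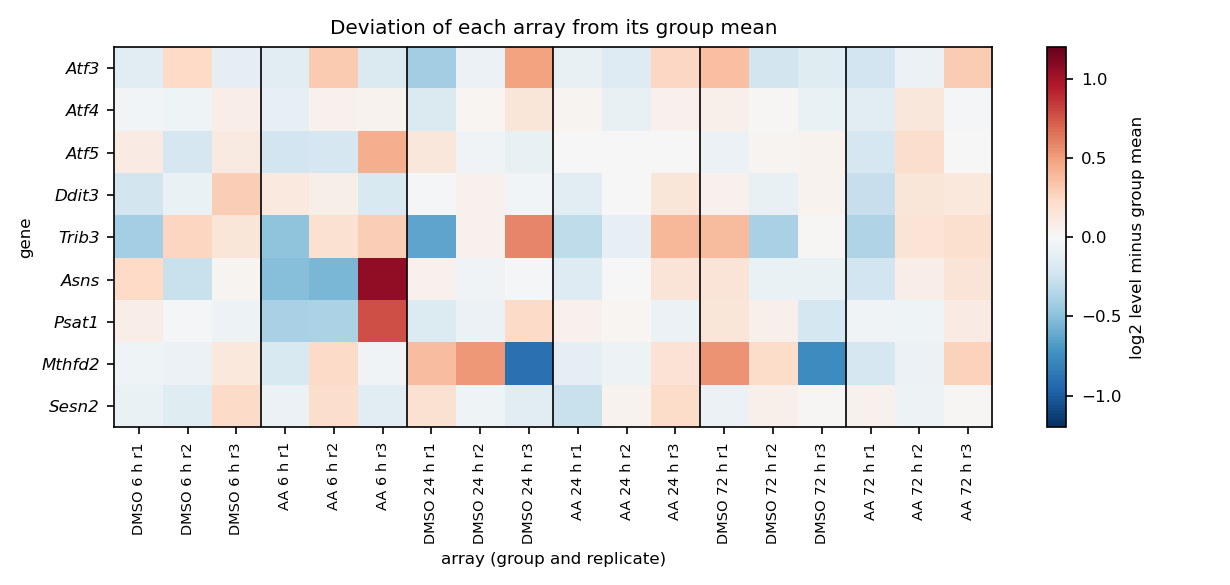
Deviation of each array from the mean of its group (colour, log2 units) for the 9 genes (vertical axis) on the 18 arrays (horizontal axis; r1 to r3 are the replicates). The darkest red cells are Asns (1.07) and Psat1 (0.77) on the third AA array of 6 h, and the blue cells of Mthfd2 are the third DMSO arrays of 24 h and 72 h.

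Promoter sequences were taken from RefSeq (assembly GRCr8), which gave 250 bases before to 50 bases after the start for 8 of the 9 genes. No promoter was available for Atf3, the gene with the largest rise at 72 h. Each was searched on both strands for the letters TGATGNAA, the core of the C/EBP-ATF response element that ATF4 binds. Of the 8 promoters 1 held these letters, that of Trib3, as TGATGTAA on the strand opposite the gene and 21 bases before the start. Of all 33469 promoters of this length, 3.98% held them. The start sites used for Atf5, Asns and Psat1 lay 2816, 555 and 779 bases inside the outer edge of the gene, so they were not at its first annotated base. A lack of these letters says only that they were not in this window.

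The promoters of the genes with large rises at 72 h whose start site lay at the gene's edge are shown, with the matched letters in capitals. Trib3 lies at chr3:161275484-161275783 on the minus strand, Mthfd2 at chr4:117380301-117380600 on the minus strand and Sesn2 at chr5:150005206-150005505 on the minus strand. Each is written 5′ to 3′ in the direction of the gene.
Trib3 promoter: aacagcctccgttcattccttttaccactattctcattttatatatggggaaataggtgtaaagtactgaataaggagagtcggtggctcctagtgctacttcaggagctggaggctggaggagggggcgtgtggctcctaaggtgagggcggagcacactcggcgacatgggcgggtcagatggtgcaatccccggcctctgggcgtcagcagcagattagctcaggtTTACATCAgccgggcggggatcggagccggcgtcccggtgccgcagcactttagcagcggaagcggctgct
Mthfd2 promoter: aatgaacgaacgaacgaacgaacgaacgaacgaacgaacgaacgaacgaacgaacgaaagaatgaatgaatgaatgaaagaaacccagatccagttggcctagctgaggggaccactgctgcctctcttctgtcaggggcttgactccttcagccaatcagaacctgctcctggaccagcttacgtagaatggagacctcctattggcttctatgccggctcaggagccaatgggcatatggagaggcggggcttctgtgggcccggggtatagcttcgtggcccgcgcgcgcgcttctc
Sesn2 promoter: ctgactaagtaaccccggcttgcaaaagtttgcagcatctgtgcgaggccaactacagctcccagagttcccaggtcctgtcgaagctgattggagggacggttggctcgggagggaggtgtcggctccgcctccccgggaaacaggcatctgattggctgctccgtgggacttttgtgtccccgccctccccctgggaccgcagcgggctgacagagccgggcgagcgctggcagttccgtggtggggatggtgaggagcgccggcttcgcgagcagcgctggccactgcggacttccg
On the main probe sets Trib3, the one with the letters, rose by log2 3.56 at 72 h, and Mthfd2 and Sesn2, without them, by 2.86 and 2.32. The other Trib3 probe sets gave 2.92 and 2.19, so the order of these genes depends on the probe set. Atf3, which could not be searched, rose by 5.27. The genomic spans of the 9 genes ran from 2.06 kb (Atf4) to 57.6 kb (Atf3), with a median of 11.5 kb against 24.3 kb over 8984 tested genes.

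Other genes of the same pathways were counted in 6 lists with 85 tested entries. At 24 h 0 of the 85 passed the test in either direction (limma), with 6 higher and 5 lower at the unadjusted p under 0.05, where 1.81% of all tested genes were higher and 0.277% lower. The 72 h counts below stand beside 27.4% of all tested genes that were higher and 19.8% that were lower. Of the eIF2 kinases and the subunits of eIF2 and of its exchange factor eIF2B, 4 of 12 rose and 2 fell, shares near those of all tested genes (27.4% and 19.8%), with a median of log2 0.04. Eif2ak2, the kinase PKR that senses double-stranded RNA, rose by 0.88 ± 0.10 (SE, adjusted p = 1.03e-06). The other eIF2 kinases did not rise. Eif2ak1 was called lower, at -0.25 ± 0.10 (SE, adjusted p = 0.0424). Eif2ak3 and Eif2ak4 gave -0.14 and -0.07 and did not pass (adjusted p = 0.391 and 0.689). They are named here beside Eif2ak2 after their values were seen. Eif2b2 and Eif2b3, subunits of eIF2B, rose by 0.51 and 0.40, and Eif2s3, a subunit of eIF2, fell by 0.54.

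Among feedback genes and partners of ATF4, 8 of 19 tested rose and 4 fell, beside 27.4% and 19.8% of all tested genes, with a median of 0.24. The share that fell is near that of all tested genes. Ddit4, an inhibitor of mTORC1, read 9.66, 9.53 and 9.59 in DMSO and 11.62, 12.06 and 11.82 in AA, a rise of 2.24 ± 0.14 (SE, adjusted p = 2.08e-10). Chac1, which degrades glutathione, rose by 1.90 ± 0.25 (SE, adjusted p = 3.68e-06). Ppp1r15a, the phosphatase subunit GADD34 that reverses eIF2 phosphorylation, rose by 1.45 ± 0.16 (SE, adjusted p = 6.03e-07). Gdf15, a secreted stress hormone, read 2.43, 2.39 and 2.40 in DMSO, at the floor, and 5.33, 6.32 and 6.61 in AA, so its difference of 3.68 depends on the background correction. Gdf15 reached log2 4 only on those AA arrays. It was tested only because it was high there, so its place among the 8 adds no support. The 4 that fell were Nupr1, a stress-induced chromatin protein linked to ATF4 (-1.25 ± 0.17, SE, adjusted p = 6.10e-06), Sesn1, the relative of Sesn2 (-0.74 ± 0.15, SE, adjusted p = 0.000355), Klhl24 (-0.44) and Nck1 (-0.32), all named after their values were seen.

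Of the amino acid transporters, 7 of 9 tested rose and 2 fell, beside 27.4% and 19.8% of all tested genes, with a median of 0.54. The share that fell is near that of all tested genes. Slc7a5, the light chain of the LAT1 transporter of large neutral amino acids, rose by 1.99 ± 0.16 (SE, adjusted p = 4.66e-09). Slc1a4 and Slc1a5, which carry small neutral amino acids and glutamine, rose by 1.81 ± 0.12 and 1.05 ± 0.12 (SE). Slc7a6 rose by 0.67. The 2 that fell were Slc38a1 and Slc38a2, glutamine and neutral amino acid carriers, at -0.35 and -0.23, both named after their values were seen.

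Of the enzymes of amino acid synthesis and one-carbon metabolism, 3 of 11 tested rose at 72 h and 2 fell, with a median of -0.00. Both shares are near those of all tested genes (27.4% and 19.8%). Shmt2, the mitochondrial serine hydroxymethyltransferase that works upstream of Mthfd2, rose by 0.62 ± 0.12 (SE, adjusted p = 0.000387), and Got1 rose by 0.37. Mthfd1l, which works downstream of Mthfd2, fell by 1.86 (SE 0.30, adjusted p = 4.27e-05), from 6.43, 6.54 and 6.32 in DMSO to 4.40, 4.84 and 4.48 in AA. Glul, glutamine synthetase, fell by 0.54. The partners of Psat1 in serine synthesis, Phgdh and Psph, gave -0.07 ± 0.16 and -0.06 ± 0.10 (SE, adjusted p = 0.739 and 0.607). They are named here beside Psat1 although they did not pass.

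The aminoacyl-tRNA synthetases and the tRNA export factor Xpot gave 8 of 14 higher and 0 lower, beside 27.4% and 19.8% of all tested genes, with a median of 0.30. Gars1 rose by 1.06 ± 0.09 (SE, adjusted p = 6.53e-09), though its probe set of largest variance gave -0.63 (adjusted p = 0.0549). Aars1, Vars1 and Xpot rose by 0.52, 0.52 and 0.48, and the call of Vars1 was lost without the second AA array of 72 h (0.39, adjusted p = 0.0653). At the unadjusted p under 0.05, 0 were lower.

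Of the endoplasmic reticulum chaperones and degradation factors that ATF6 and XBP1 control, 9 of 20 rose and 3 fell, beside 27.4% and 19.8% of all tested genes, with a median of 0.17. Sdf2l1 and Dnajc3, co-chaperones of the reticulum, rose by 0.96 ± 0.13 and 0.71 ± 0.08 (SE). Hyou1 rose by 1.18 ± 0.16 on its main probe set and gave -0.08 (adjusted p = 0.871) on the one of largest variance. Atf6 fell by 0.69 (SE 0.11, adjusted p = 2.28e-05), a call that its probe set of largest variance did not give (-0.57, adjusted p = 0.215).

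**Figure D4:**
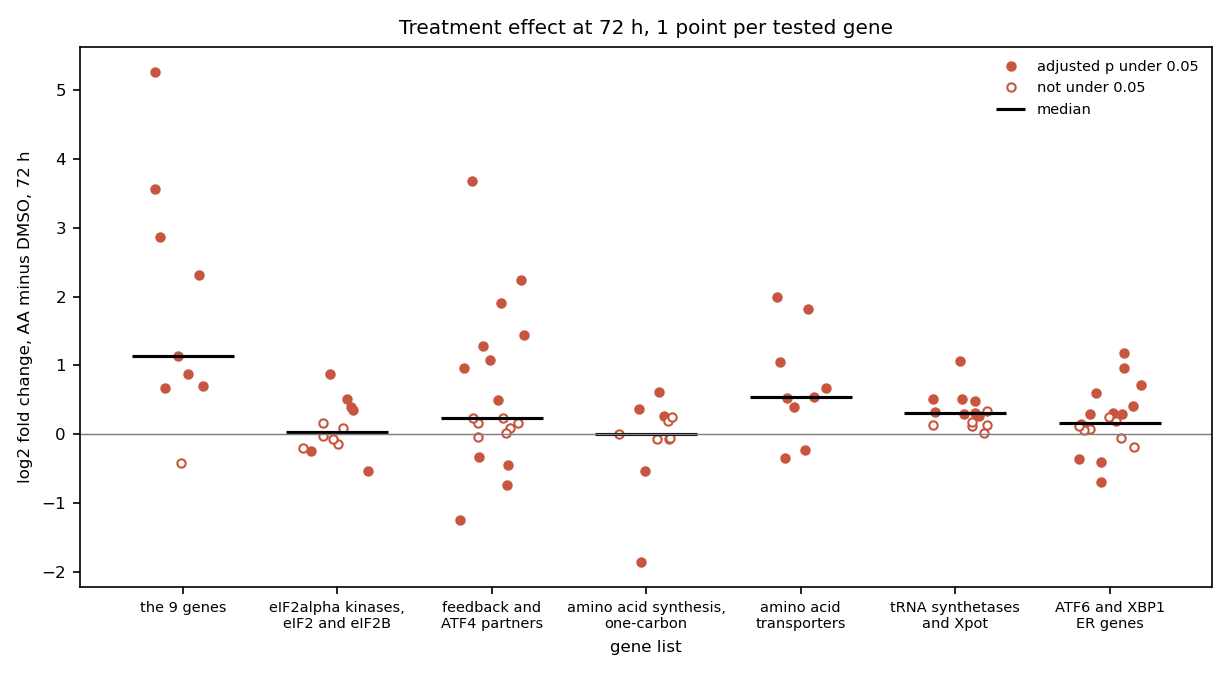
Difference between AA and DMSO at 72 h (vertical axis, log2 fold change) for each tested gene of the 9 and of the 6 pathway lists (horizontal axis); filled points have an adjusted p under 0.05 and bars are medians. The medians run from -0.00 for amino acid synthesis to 0.54 for the transporters, beside 1.14 for the 9 genes.

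At 6 h, 12.1% of all tested genes were higher and 12.4% lower. The kinase and initiation list gave 0 higher and 2 lower of 12, the feedback list 3 and 2 of 19, the synthesis list 2 and 1 of 11, the transporters 2 and 1 of 9, the synthetases 4 and 1 of 14 and the reticulum list 2 and 2 of 20. In the kinase and initiation list Eif2ak3, the kinase PERK, gave -0.47 ± 0.13 (SE, adjusted p = 0.0135), lost without the third AA array of 6 h (-0.33, adjusted p = 0.0998) and without the third DMSO array (-0.39, adjusted p = 0.0639). The other gene lower in that list was Eif2ak2, at -0.34 ± 0.10 (SE, adjusted p = 0.0217), against 0.88 at 72 h. That 6 h call was lost without the third AA array of 6 h (-0.26, adjusted p = 0.132) and under other alternatives. Phgdh, the first enzyme of serine synthesis, read 10.61, 10.79 and 11.59 in AA and 10.44, 10.49 and 10.55 in DMSO. Its difference of 0.50 ± 0.16 (SE, adjusted p = 0.0256) was 0.21 (adjusted p = 0.153) without the third AA array, the one on which Psat1 and Asns were high. Dnajb9, a reticulum co-chaperone, fell by 0.89 (SE 0.17, adjusted p = 0.00151). Without the third AA array of 6 h the counts in these lists were at most 1 higher and 2 lower, and calls were also lost without other 6 h arrays.

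The genes most like each of the 9 over the 18 arrays were listed by Pearson's r. For Atf3 they were Mdm2 (r = 0.97), Vegfa (0.95) and Aldh4a1 (0.95), and for Sesn2 Enc1 (0.97), Dyrk3 (0.97) and Hprt1 (0.97). For Atf4 the first was Ppp1r15a (0.96), for Trib3 Ddit4 (0.94), for Atf5 Fkbp4 (0.96) and for Ddit3 Lto1 (0.95). For Mthfd2 it was Tnfrsf12a (0.97) and for Asns Snf8 (0.93). For Psat1 the first 2 were Fdft1 (0.93) and Phgdh (0.93). At 72 h Mdm2 stood log2 2.51 higher in AA than in DMSO, Enc1 2.49 and Dyrk3 3.48. Of the others named here, Vegfa gave 2.19, Aldh4a1 1.75, Hprt1 0.99, Ppp1r15a 1.45, Ddit4 2.24 and Fkbp4 0.74. Lto1 gave 1.01, Tnfrsf12a 1.10, Snf8 0.31, Fdft1 -0.02 and Phgdh -0.07. All arrays share the 6 groups, so a high r here can come from group means that ran in parallel. It also takes in the spread within groups, and Asns, Psat1 and Phgdh were all high on the third AA array of 6 h. These r were not recomputed without that array.

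The labelled cell type was read from marker genes. Of 8 epithelial markers, 3 (Krt8, Tjp1 and Ocln) reached log2 4 on at least 3 arrays, while Cdh1, Epcam and Krt18 were near the floor. Their summed level was log2 14.5 to 14.6 in AA and 14.3 to 14.4 in DMSO at 72 h. Of 12 proximal tubule markers, 3 did (Aqp1, Ggt1 and Mme), and Lrp2, Cubn and Slc34a1 were near the floor. The summed proximal tubule level was log2 7.20 to 7.31 in AA and 8.75 to 8.84 in DMSO at 72 h. The summed fibroblast level was log2 14.37 to 14.62 in AA and 14.67 to 14.83 in DMSO at 72 h. Of its markers, Pdgfra, Dcn, Lum and Thy1 were near the floor. Of the 9 fibroblast markers 4 were at log2 4 or more on at least 3 arrays (Col1a1, Col1a2, Col3a1 and Acta2). Of immune markers 2 of 6 were (Cd68 and Cd14) with Ptprc near the floor, with sums of 11.23 to 11.34 and 11.13 to 11.31. Of endothelial markers 1 of 4 was (Tek) with Pecam1 near the floor, with sums of 4.81 to 5.10 and 6.35 to 6.59. Each sum adds linear values, so its brightest genes weigh most and it is not a measure of a whole cell type. Over the 6 groups the means of Aqp1 ran from log2 2.07 to 8.43 and those of Tek from 4.19 to 6.21. The part of these shifts in the 72 h results was not tested, and fewer cells of a type and less RNA per cell cannot be told apart in bulk RNA.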

How the data were processed

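Total RNA of 18 NRK-52E samples (6 groups of 3) was labelled with biotin and read on Affymetrix rat arrays, per the labels' protocols. The table the authors deposited holds a log2 value for each probe set on each array. Per the submitters' processing notes GCRMA was used, which corrects background from probe sequence, normalizes and summarises. Which version and settings is not given in the sources used here. Precision is limited by the number of arrays, and the scale has no counts behind it.

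Of 31099 probe sets, 57 were controls and 20826 had 1 gene symbol. Genes reaching log2 4 on 3 or more arrays were fitted in R 4.3.3 with limma 3.58.1 (6 group means, eBayes with intensity trend, 12 residual and 7.27 prior degrees of freedom). P-values were adjusted by Benjamini-Hochberg over all 9015 genes in each comparison, with 0.05 as threshold, and other probe sets were tested in a fit of 16253 probe sets. The steps were tested on simulated data. Named were all 9 genes, up to 4 called genes of the largest change per pathway list and treatment comparison (at 6 h only some of these are described), and the 3 genes most like each member. The 9 genes, the lists and the rules were chosen with earlier results of these data known, so no list is independent support. Alternatives were other scalings, filters, probe set choices, variance models, fewer arrays in the fit, a replicate block and leaving out each array. Their use for the pathway lists, and the correlations without 1 array, were added after seeing the data.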

Additional observations from a re-analysis of the deposited data

Results flagged for a closer look

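These results are listed because the test of a difference between times passed, as log2 difference of treatment effects with its standard error (limma, n = 3 arrays in each of 4 groups). From 24 h to 72 h the effect gained 4.70 ± 0.32 for Atf3 (adjusted p = 3.44e-09), 3.34 ± 0.41 for Trib3 (4.67e-06), 2.46 ± 0.43 for Mthfd2 (0.000223) and 1.96 ± 0.18 for Sesn2 (1.40e-07). In the same comparison it gained 1.30 ± 0.38 for Asns (adjusted p = 0.0139), 0.96 ± 0.20 for Atf5 (0.00122), 0.80 ± 0.18 for Ddit3 (0.00222) and 0.62 ± 0.12 for Atf4 (0.000426).

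From 6 h to 72 h it gained 4.84 ± 0.32 for Atf3 (adjusted p = 1.33e-09), 3.75 ± 0.41 for Trib3 (8.82e-07), 3.05 ± 0.43 for Mthfd2 (1.71e-05) and 2.44 ± 0.18 for Sesn2 (5.37e-09). It gained 0.84 ± 0.18 for Ddit3 (adjusted p = 0.00113) and 0.75 ± 0.12 for Atf4 (5.04e-05). For Psat1 it was -1.17 ± 0.29 (adjusted p = 0.00313). The 2 sets share the 72 h arrays and are not independent of each other. No test for an outlying array within a group was run on single genes, since the groups held 3 arrays.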

How the results depend on the processing

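The 8 genes higher in AA at 72 h were called higher under each of the alternatives that could be run for that comparison, with Atf3 between 5.11 and 5.45, Trib3 between 3.37 and 3.75, Mthfd2 between 2.49 and 3.13, Sesn2 between 1.87 and 2.35 and Atf4 between 0.60 and 0.73 on the log2 scale. The 1.87 of Sesn2 came from its dimmer probe set, which could be tested only through the AA arrays of 72 h. Of 422 recomputed counts of called genes among the 9, 410 were within 1.5 times the reported one. With only the arrays of that time, genes higher at 6 h went from 1 to 0 and genes lower at 72 h from 0 to 1. Without the filter, genes higher in DMSO at 72 h against 24 h went from 1 to 0. Leaving out 1 array gave 1 to 2 genes higher at 6 h (2 without the first or second AA array), 0 to 1 lower at 72 h and 0 to 1 higher in DMSO at 24 h against 6 h (both 1 without the third AA array of 6 h). It gave 0 to 1 lower for the effect at 24 h against 6 h (1 without the first AA array of 6 h) and 0 to 1 higher in DMSO at 72 h against 24 h. The fit of a single time has fewer arrays, and the filter changes how many genes are adjusted over. The causes of these changed counts were not tested.

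Differences that turned sign were small or came from another probe set, and the cause was not tested. With the probe set of largest variance, Sesn2 gave -0.12 at 24 h, -0.0246 for the effect at 24 h against 6 h, 0.26 for DMSO at 24 h against 6 h, and 0.0223 for DMSO at 72 h against 24 h. With it Slc38a1 gave -0.0548 at 6 h, and Gars1 -0.63 and Hyou1 -0.0827 at 72 h. With arrays centred on the median, Ddit3 gave -0.0012 for the effect at 24 h against 6 h and Atf5 -0.0011 in DMSO at 24 h against 6 h. Leaving out 1 array gave ranges across 0. At 6 h they were -0.0745 to 0.18 for Ddit3 and -0.40 to 0.0491 for Trib3. At 24 h they were -0.0392 to 0.12 for Atf4, -0.0981 to 0.51 for Trib3, -0.14 to 0.0579 for Psat1 and -0.0404 to 0.67 for Mthfd2. For the effect at 24 h against 6 h they were -0.0678 to 0.39 for Atf3 and -0.11 to 0.15 for Ddit3. In DMSO they were -0.0666 to 0.0861 for Atf5, -0.31 to 0.30 for Trib3 and -0.17 to 0.0246 for Psat1 at 24 h against 6 h, and -0.0076 to 0.15 for Atf4 at 72 h against 24 h. None of these values passed the test.

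The deviations of arrays with the same replicate number gave r between -0.156 and 0.155, so no pairing by number was seen. Such values cannot show that same-numbered samples were unrelated, and the labels do not say. A replicate block gave 8 genes higher at 72 h, 0 at 24 h and 1 at 6 h, the same counts. Among the pathway lists, counts at 6 h moved both ways: with only the 6 h arrays the genes higher went to 0 for the synthetases (from 4), the synthesis list (from 2), the transporters (from 2) and the reticulum list (from 2), and with arrays centred on the median they went to 7, 5, 3 and 4. At 72 h the synthetases ranged from 5 to 10 higher.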
